A study of Mus musculus with 3 samples.

Results

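The Ube2 genes encode ubiquitin-conjugating enzymes (E2 enzymes) and close relatives. They were chosen by name, as every row of the deposited table whose gene symbol starts with Ube2, which gave 34 of 15403 named rows. The values come from RIP-seq, the sequencing of RNA that is pulled down together with a protein by an antibody. The extracts were of C2C12 cells, a mouse myoblast line, at day 2 after a switch from growth medium to medium with 2% horse serum, when these cells form muscle fibres. The labels give all groups this cell line, time and extract amount (500 µg). Anti-YB-1, anti-HuR and control IgG made up the groups, with 1 library each, so nothing below could be checked in a replicate. The names of all 3 libraries in the table also end in siCtl, which the labels do not explain, so a treatment common to all groups is possible.

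In the ubiquitin pathway an E1 enzyme activates ubiquitin, an E2 enzyme takes it over on a cysteine, and an E3 ligase directs its transfer to a target protein. The E2 largely sets which kind of chain is built, and a few E2 enzymes carry SUMO, NEDD8 or ISG15 in place of ubiquitin. Muscle cells use the pathway to remove regulators during differentiation and to break down myofibrillar proteins. HuR (encoded by Elavl1) is an RNA-binding protein known to bind U-rich and AU-rich stretches, mostly in 3′ UTRs, and YB-1 (encoded by Ybx1) is a cold-shock domain protein that coats many mRNAs. The study asked which mRNAs both proteins bind in muscle cells.

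Because HuR is known for AU-rich stretches, the motif ATTTA, written with T for the U of the RNA, was looked for in the 3′ UTRs of the 4 Ube2 mRNAs with the highest ratio of HuR over YB-1 and of mRNAs among the lowest. Where a 3′ UTR holds it, the 30-base window with the most ATTTA is shown, on the strand of the mRNA and with the motif in capitals. The first 4 are the mRNAs highest in HuR over YB-1, and the last is one of the lowest. The sequences are from GENCODE vM21 transcripts (GRCm38).
Ube2t (chr1:134974094-134974123, plus strand): tttATTTAtcttgtacatatgtATTTAgaa
Ube2w (chr1:16570659-16570688, minus strand): atcattgcatATTTATTTAattgtttatat
Ube2n (chr10:95542369-95542398, plus strand): ttttttgtttgcATTTAatggacacagtct
Ube2d3 (chr3:135466595-135466624, plus strand): agccATTTAcattaatgagcATTTAaatgc
Ube2e1 (chr14:18283031-18283060, minus strand): taggtacatgtcATTTAtgtaaagtcctat

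Ube2cbp and Ube2v1, also among the lowest, have no ATTTA in 3′ UTRs of 550 and 1463 nt. The 3′ UTR of Ube2d3 holds 14 copies in 2958 nt, that of Ube2n 5 in 3345 nt, that of Ube2w 5 in 1487 nt, that of Ube2t 2 in 216 nt and that of Ube2e1 2 in 620 nt. Per kb these are 4.73, 1.49, 3.36, 9.26 and 3.23 in the same order, so Ube2n lay below Ube2e1. For background, 723137 windows of 30 bases were laid end to end along the 3′ UTRs of all named genes matched to a coding transcript. Of these, 4.42% held ATTTA and 0.253% held it at least 2 times, with overlapping copies counted. The windows shown were picked for the most ATTTA, so these shares do not measure how rare they are. The reverse complement TAAAT was in 4.57%. A match is a run of letters and not a measured binding site.

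The libraries held 39112714 (YB-1), 24797504 (HuR) and 10630155 (IgG) reads. Levels are normalized counts, the authors' reads scaled by the size factor of each library, and 1 read was worth 0.531 (YB-1), 0.862 (HuR) or 2.29 (IgG). Intervals are exact 95% Clopper-Pearson intervals of the ratio of 2 libraries. Only counting error is covered, because each antibody had 1 library. No molecular identifiers mark which reads are independent, so even the counting error may be larger than the intervals show. Of 10 muscle markers, 9 were in the table and had reads in every library. In YB-1 over IgG, 7 of the 9 were at least 2-fold higher, against 17.0% of all genes, and 1 was lower. In HuR over IgG, 7 were higher, against 18.9%, and 1 was lower. Their median log2 ratios were 1.73 and 1.78. The IgG library stood apart: 7 of 7 endothelial markers, 6 of 6 adipocyte markers, 5 of 6 leukocyte markers and 8 of 8 markers of adult muscle fibres were highest there. Endothelial markers summed to 11740 normalized counts in IgG against 26.6 (YB-1) and 2.59 (HuR), with 2 of 7 at 0 in YB-1 and 5 of 7 at 0 in HuR. Adipocyte markers summed to 5964, 1.06 and 10.3 (5 of 6 at 0 in each antibody library), leukocyte markers to 594, 96.7 and 26.7 (4 of 6 at 0 in each), and fibre markers to 1062219, 35458 and 32462 (0 of 8 at 0). The labels give C2C12 cells for the IgG library as well, and the source of these mRNAs in it was not tested. It is therefore open whether IgG is a matched control. The part of these mRNAs in the ratios to IgG was not tested either. HuR over YB-1 is given first, since IgG reads enter it only through the authors' size factors. With size factors from YB-1 and HuR alone, it moved by 0.06 on the log2 scale.

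Of the 34 Ube2 rows, 32 passed a mean of 10 normalized counts. The others, Ube2d2b (an intronless copy on chromosome 5) and Ube2ql1, had 4 and 9 reads in IgG and 0 in both antibody libraries. A count of 0 allows up to 3 reads, which is a level of 1.59 (YB-1) or 2.59 (HuR). The 32 measured mRNAs ran from 9.03 to 9294 normalized counts in YB-1 (median 1750), from 21.6 to 25877 in HuR (median 2521) and from 59.7 to 17265 in IgG (median 2095). All Ube2 rows together made up 0.638% of reads in HuR, 0.392% in YB-1 and 0.360% in IgG.

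**Figure D1:**
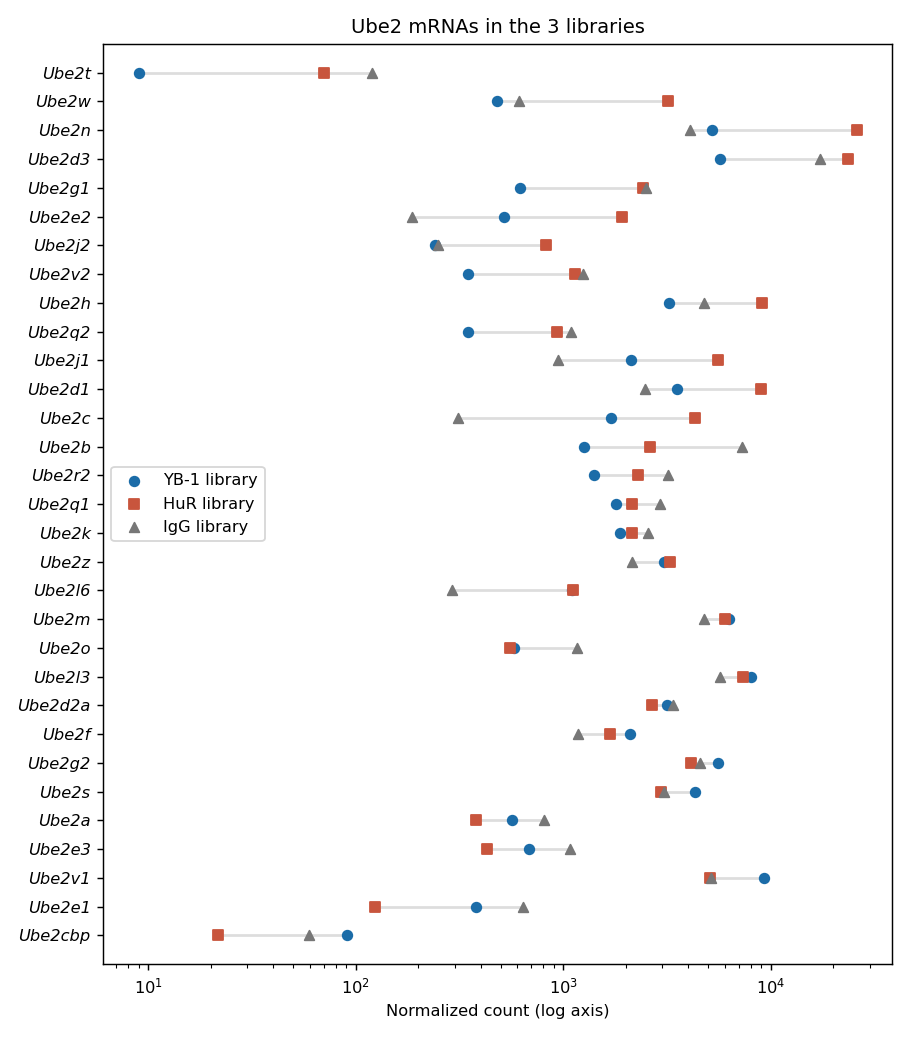
Normalized counts (log axis) of 31 of the 32 measured Ube2 mRNAs, 1 point per library and no replicate. The mRNAs are ordered from the highest ratio of HuR over YB-1 (Ube2t, top) to the lowest (Ube2cbp, bottom). The HuR point lies right of the YB-1 point for 19 of the 31 mRNAs, and for Ube2n it reaches 25877.

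The libraries ordered the family differently. Per kb of the main transcript, which makes levels of different genes comparable, Ube2v1 with 4554 normalized counts per kb and Ube2m with 4247 were among the highest in YB-1. In HuR the highest were Ube2n with 6692, Ube2d1 with 6271 and Ube2d3 with 6131. In IgG they were Ube2d3 with 4504, Ube2b with 4046 and Ube2m with 3227. Ube2v1, at place 2 in YB-1, was at place 8 in HuR, and Ube2n, the first in HuR, was at place 10 in YB-1. These values rest on 1 annotated transcript per gene, and another choice of transcript could change them.

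Many Ube2 mRNAs were more abundant with HuR than with YB-1. Of 32, 14 were at least 2-fold higher in HuR, against 19.3% of 11868 genes, and 2 were at least 2-fold lower, against 10.6%. The 14 make up 43.8% of the measured members. The median log2 ratio of the members was 0.22 (quartiles -0.34 and 1.54), against -0.06 for all genes. With a mean of 50 or more, 13 of 31 members were higher and 2 lower, beside 17.6% and 7.83% of 10262 genes. The members did not move as 1 body: 16 lay within 2-fold either way, and the ratios ran from -2.08 to 2.95 on the log2 scale. By role, 4 of 7 chain-starting enzymes, 2 of 3 in the lysine-63 group, 3 of 6 in the lysine-48 and degradation group, 3 of 5 in the cell cycle and DNA repair group, 0 of 5 for ubiquitin-like proteins and 2 of 4 large or other enzymes were higher. Their median log2 ratios were 1.34, 1.72, 1.04, 1.05, -0.05 and 0.84. Nearest to the upper 2-fold limit, Ube2b lay just beyond it at a log2 ratio of 1.05 and Ube2r2 fell short of it at 0.70. Ube2v1 fell short of the lower limit at -0.87. Centring the log2 ratios on ribosomal protein genes left 15 higher and 1 lower, beside 34.7% and 4.06% of all genes. That centring turned 8 of the 13 members below 0 to above 0 (Ube2a, Ube2d2a, Ube2f, Ube2g2, Ube2l3, Ube2m, Ube2o and Ube2s).

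**Figure D2:**
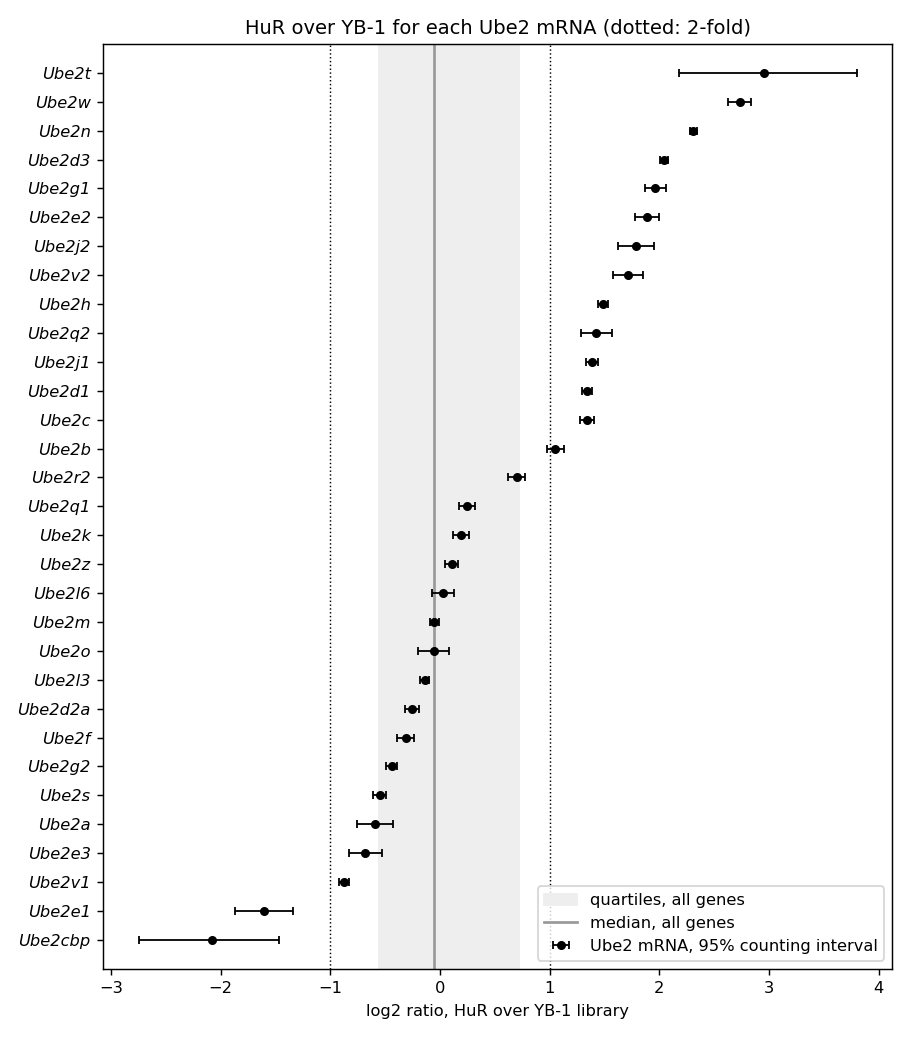
The log2 ratio of HuR over YB-1 for 31 of 32 Ube2 mRNAs (points), with exact 95% counting intervals (bars) and the quartiles (grey band) and median (grey line) of 11868 genes. Right of the dotted line at 2-fold lie 14 mRNAs and left of the other line lie Ube2e1 and Ube2cbp.

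Where 3 levels follow each other below, they are normalized counts for YB-1, HuR and IgG in that order. The Ube2d and Ube2e enzymes and Ube2w start chains on many targets. Ube2d3, which works with a broad range of RING ligases, had normalized counts of 5705 with YB-1, 23501 with HuR and 17265 with IgG. HuR was the highest, and YB-1 was the lowest by a wide margin. The ratio of HuR over YB-1 was 4.12-fold (4.03 to 4.21). Ube2d1, a close relative, reached 3536 with YB-1, 8973 with HuR and 2469 with IgG, with HuR 2.54-fold above YB-1 (2.46 to 2.62). Ube2d2a, the remaining measured enzyme of that subfamily, differed little between libraries, at 3168, 2660 and 3364, and its ratio was 0.840 (0.804 to 0.877). Ube2w, which can place ubiquitin on the N-terminus of a protein, reached 478 with YB-1, 3179 with HuR and 613 with IgG. YB-1 and IgG were close to each other and HuR was 6.65-fold above YB-1 (6.18 to 7.16).

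The Ube2e enzymes, which share a core and carry an N-terminal extension, split. Ube2e2 had normalized counts of 520 with YB-1, 1916 with HuR and 186 with IgG, so HuR was 3.69-fold above YB-1 (3.42 to 3.98). Ube2e1 stood at 377, 124 and 638, in the opposite order for HuR and IgG, and was 3.04-fold below YB-1 in HuR (2.54 to 3.66). Ube2e3 stood at 686, 428 and 1078, and was 1.60-fold below YB-1 in HuR (1.45 to 1.78). HuR was the lowest library for both Ube2e1 and Ube2e3. Nkiras1, on the opposite strand, overlaps 16.1% of the exon bases of Ube2e1.

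Ube2n builds lysine-63-linked chains, used in signalling and DNA repair, as a dimer with Ube2v1 or Ube2v2, which lack the catalytic cysteine. Ube2n had normalized counts of 5224 with YB-1, 25877 with HuR and 4055 with IgG. HuR stood far above the others, 4.95-fold over YB-1 (4.84 to 5.07). The mRNAs of its partners went opposite ways. Ube2v2 reached 346 with YB-1, 1137 with HuR and 1244 with IgG, so YB-1 was the low library and HuR was 3.29-fold above it (2.99 to 3.62). Ube2v1 stood at 9294, 5070 and 5138, so YB-1 was the high library and HuR was 1.83-fold lower (1.78 to 1.89). In GENCODE vM21, 61.5% of the exon bases of Ube2v1 are shared with the read-through gene Gm20431 on the same strand, so its reads may be split or dropped.

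Among enzymes that build lysine-48-linked chains or serve degradation at the endoplasmic reticulum, both members of the membrane-anchored Ube2j pair were higher in HuR. Ube2j1 had normalized counts of 2119 with YB-1, 5544 with HuR and 945 with IgG, and HuR was 2.62-fold above YB-1 (2.51 to 2.72). Ube2j2 stood at 241, 828 and 248, with YB-1 and IgG alike and HuR 3.44-fold above YB-1 (3.08 to 3.86). The Ube2g enzymes split. Ube2g1 reached 620 with YB-1, 2420 with HuR and 2499 with IgG, so HuR and IgG were alike and HuR was 3.90-fold above YB-1 (3.64 to 4.18). Ube2g2, which acts in degradation at the endoplasmic reticulum, stood at 5587, 4112 and 4560, a ratio of HuR over YB-1 of 0.736 (0.711 to 0.762). Ube2r2, a relative of Cdc34 that works with cullin ligases, was at 1410, 2291 and 3194, and Ube2k at 1871, 2137 and 2563. Both stayed within 2-fold between HuR and YB-1, with ratios of 1.62 and 1.14.

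The enzymes of the anaphase-promoting complex, which triggers exit from mitosis, differed from each other. Ube2c starts its chains and had normalized counts of 1704 with YB-1, 4323 with HuR and 310 with IgG. Both antibody libraries were above IgG, and HuR was 2.54-fold above YB-1 (2.43 to 2.65). Ube2s extends the chains and stood at 4299, 2938 and 3061, with HuR 1.46-fold lower than YB-1 (1.41 to 1.52). On the opposite strand, Tnnc2, which encodes the troponin C of fast muscle, overlaps 22.8% of the exon bases of Ube2c. Rpl28, a ribosomal protein gene also on the opposite strand, overlaps 3.56% of the exon bases of Ube2s. Strand use in counting is not given in the sources used here. Among DNA repair enzymes, Ube2t, the E2 of the Fanconi anaemia pathway, had the highest ratio of all members, 7.73-fold (4.54 to 13.9), but on 17 (YB-1), 81 (HuR) and 52 (IgG) reads. Its levels were 9.03, 69.8 and 119 normalized counts. Ube2b stood at 1264, 2622 and 7251, highest in IgG, with HuR 2.07-fold above YB-1 (1.97 to 2.19). Ube2a, which like Ube2b corresponds to yeast Rad6, stood at 569, 378 and 808, and HuR was 1.51-fold lower than YB-1 (1.35 to 1.69).

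None of the 5 enzymes linked to ubiquitin-like proteins passed 2-fold between HuR and YB-1. Most genes did not pass it either, with 8316 of 11868 within 2-fold. The NEDD8 enzymes Ube2m (6251, 6029 and 4750) and Ube2f (2085, 1679 and 1170) had ratios of HuR over YB-1 of 0.965 and 0.805. Ube2l6, the E2 for ISG15, stood at 1097, 1118 and 289, nearly equal in the antibody libraries and lower in IgG. Ube2z, which takes ubiquitin or FAT10 from Uba6, stood at 3046, 3280 and 2150. Its ratio of HuR over YB-1 was 1.08 (1.03 to 1.12).

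Of the remaining members, Ube2h, the E2 of the CTLH ligase, had normalized counts of 3239 with YB-1, 9062 with HuR and 4787 with IgG, and HuR was 2.80-fold above YB-1 (2.71 to 2.89). Ube2q2 stood at 346, 929 and 1085, lowest in YB-1, with a ratio of 2.68 (2.43 to 2.96), and its relative Ube2q1 at 1795, 2130 and 2921, with a ratio of 1.19. Ube2l3, which serves HECT and RBR ligases, was level at 8053, 7303 and 5716, with 28.6% of its exon bases overlapped by Ydjc on the opposite strand. Ube2o, a large protein that acts as E2 and E3 at once, was level between the antibodies at 576 and 554 against 1168 in IgG. Ube2cbp, which is not an E2 but a protein that binds Ube2c, had few reads (171 with YB-1, 25 with HuR and 26 with IgG). It was 4.22-fold below YB-1 in HuR (2.76 to 6.70).

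Close relatives could share reads, so their sequences were compared. Coding regions were 86.3% identical between Ube2d2a and Ube2d3, 77.3% between Ube2d1 and Ube2d3, 77.6% between Ube2v1 and Ube2v2, 77.0% between Ube2e1 and Ube2e2, 77.6% between Ube2a and Ube2b and 60.0% between Ube2g1 and Ube2g2. The longest identical run between main transcripts was 42 nt for Ube2d2a and Ube2d3, 14 nt for Ube2d1 and Ube2d3, 17 nt for Ube2v1 and Ube2v2, 21 nt for Ube2e1 and Ube2e2, 18 nt for Ube2a and Ube2b and 11 nt for Ube2g1 and Ube2g2. The ratios of HuR over YB-1 lay on opposite sides of 1 within the Ube2v and Ube2g pairs. So did those of Ube2e1 and Ube2e2, Ube2a and Ube2b, and Ube2d2a and Ube2d3. The same held for Ube2d1 and Ube2d2a, Ube2e2 and Ube2e3, and Ube2l3 and Ube2l6. For Ube2l6, however, the counting interval of the ratio spanned 1, so its side was not settled. Scaled to total reads, its log2 ratio was -0.011, on the same side as Ube2l3. Both ratios were above 1 for Ube2d1 and Ube2d3 and within the Ube2j and Ube2q pairs. Both were below 1 for Ube2e1 and Ube2e3 and for Ube2m and Ube2f. Ube2m, at 0.965, turned just above 1 with centring on all genes (log2 ratio 0.005). It also did so with size factors from YB-1 and HuR alone (0.004). Ube2d2b, 92.6% identical to Ube2d2a, had no ratio. After centring on ribosomal protein genes, only Ube2v1 and Ube2v2, Ube2e1 and Ube2e2, and Ube2e2 and Ube2e3 stayed on opposite sides.

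The 3′ UTRs of the members differed in base composition along this ratio. In the 14 members at least 2-fold higher in HuR, U made up a median of 35.1% of the 3′ UTR (29.1 to 43.1), against 28.4% (23.8 to 35.6) in the 16 members within 2-fold. Ube2cbp and Ube2e1, the 2 lower members, had 28.7% and 35.3%. Runs of 5 U (TTTTT, overlapping copies counted) started at a median of 10.5 positions per kb in the 14 members and 3.12 in the 16. ATTTA had medians of 2.14 and 1.59 per kb, or 4 and 2 copies in 3′ UTRs of median 1888.5 and 1448.5 nt. At least 1 ATTTA was in the 3′ UTR of 28 of 32 members (87.5%), against 68.7% of 11381 genes, but the members' 3′ UTRs were longer (median 1475 against 1069 nt). Per kb the medians were 1.71 and 1.30. Ube2t had no run of 5 U in its 216 nt, and Ube2c no ATTTA in its 345 nt. TTTTT was in 7.31% of the windows of 30 bases and its reverse complement AAAAA in 5.06%.

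The same measures were taken over all genes. Genes at least 2-fold higher in HuR (2150 with a 3′ UTR of 50 nt or more) had median U of 32.3%, those within 2-fold 28.5% and those at least 2-fold lower 27.0%. Runs of 5 U stood at 8.76, 3.38 and 1.34 per kb. Over 32 members, the Spearman rho of the log2 ratio was 0.50 with the percentage of U, 0.55 with runs of 5 U, 0.31 with ATTTA per kb, 0.34 with 3′ UTR length and -0.38 with coding GC content. Over 11381 genes these were 0.40, 0.46, 0.29, 0.31 and -0.23. They are descriptions across genes of the same libraries, and genes are not replicates. The libraries differ in depth, and whether they differ in base composition was not tested. With the longest annotated 3′ UTR in place of that of the main transcript, rho over the members was 0.50 with U and 0.52 with runs of 5 U.

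**Figure D3:**
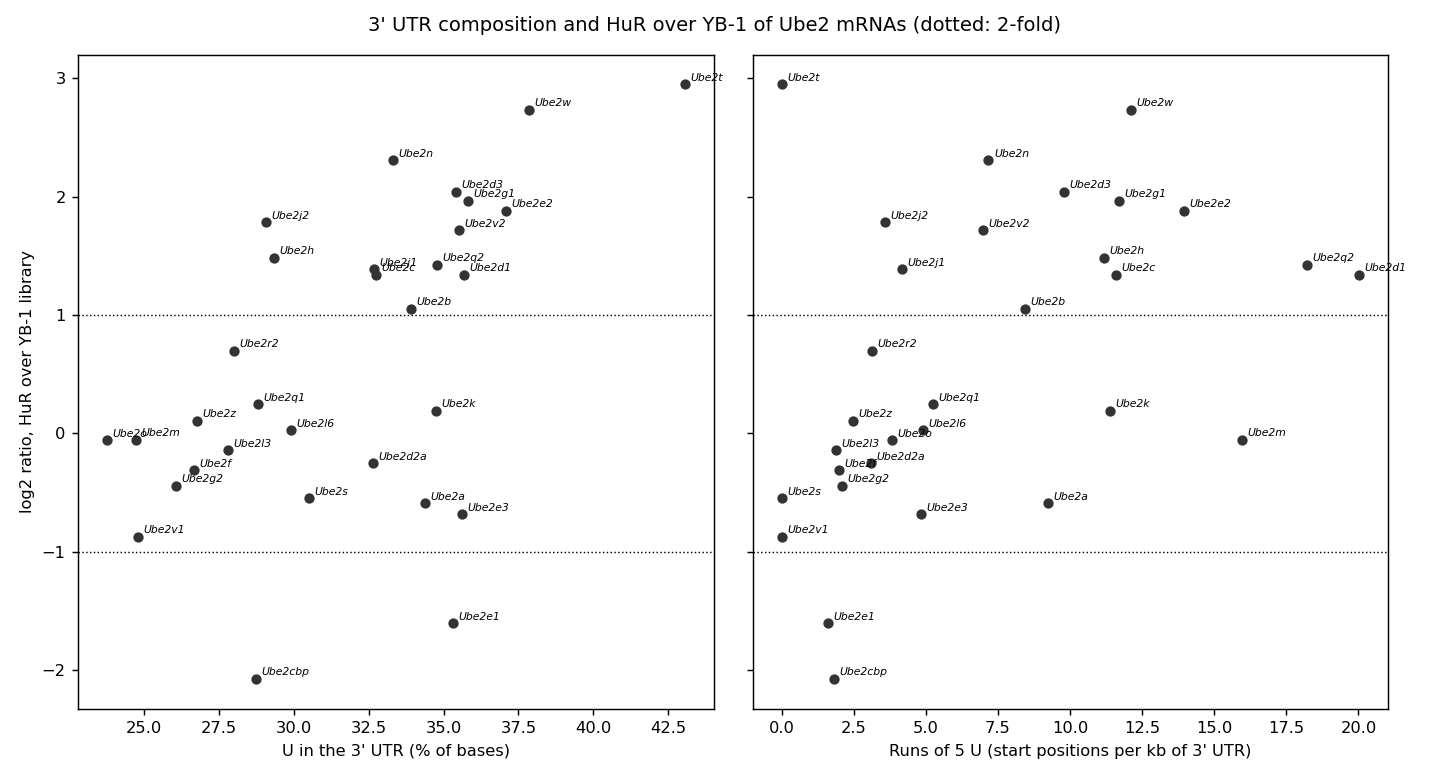
The log2 ratio of HuR over YB-1 of 31 of 32 Ube2 mRNAs (points) against the percentage of U in the 3′ UTR (left) and the number of starts of runs of 5 U per kb of 3′ UTR (right), with dotted lines at 2-fold. The 14 mRNAs above the upper line have a median U of 35.1% against 28.4% for all 16 within 2-fold, of which 15 are drawn, while Ube2e1 (35.3% U) lies below the lower line and Ube2t has no run of 5 U.

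Both ratios to IgG use the same IgG library, so they are not separate evidence. In YB-1 over IgG, 5 of 32 members were at least 2-fold higher, against 17.0% of 13022 genes, and 8 were at least 2-fold lower, against 32.8%. The median log2 ratio was -0.06, against -0.17 for all genes. Scaling to total reads gave 7 higher and 6 lower, beside 23.5% and 29.2% of all genes. Centring on all genes gave 7 and 7, beside 21.8% and 30.03%, and centring on ribosomal protein genes 1 and 17, beside 2.37% and 58.2%. In HuR over IgG, 8 members were at least 2-fold higher, against 18.9% of 13024 genes, and 6 at least 2-fold lower, against 31.1%, with a median of -0.03 against -0.16. Scaling to total reads gave 9 and 4, beside 23.2% and 28.03% of all genes. Centring on all genes also gave 9 and 4, beside 22.4% and 28.5%, and centring on ribosomal protein genes 8 and 7, beside 11.3% and 41.0%. With a mean of 50 or more, the members' counts did not change, beside 17.0% and 28.4% of 11153 genes for YB-1 and 19.1% and 26.5% for HuR.

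Among the members highest in YB-1 over IgG were Ube2c (log2 ratio 2.46), Ube2l6 (1.92) and Ube2e2 (1.48). Ube2c was 5.50-fold above IgG (4.63 to 6.58), on 135 reads in IgG. The lowest were Ube2t (-3.72), Ube2b (-2.52), Ube2g1 (-2.01) and Ube2v2 (-1.85). In HuR over IgG the highest were Ube2c (3.80), Ube2e2 (3.37), Ube2n (2.67) and Ube2j1 (2.55). Ube2c was 14.0-fold above IgG (11.8 to 16.7), Ube2e2 10.3-fold (8.26 to 13.0) and Ube2n 6.38-fold (6.08 to 6.70). The lowest were Ube2e1 (-2.36), Ube2b and Ube2cbp (both -1.47) and Ube2e3 (-1.33).

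Some members stood apart in 1 antibody library from both other libraries. Ube2w, Ube2n, Ube2e2, Ube2j2, Ube2j1, Ube2d1 and Ube2c were at least 2-fold higher in HuR than in both YB-1 and IgG, 7 of 32 against 9.70% of 11770 genes. Ube2t, Ube2d3, Ube2g1, Ube2v2, Ube2q2 and Ube2b lay 2-fold or more under both HuR and IgG in YB-1, 6 of 32 against 8.60% of 11768 genes. The 14 members at least 2-fold higher in HuR than in YB-1 are these 13 and Ube2h. The highest library was HuR for 11 members, against 25.7% of 13043 genes, YB-1 for 8, against 29.5%, and IgG for 13, against 44.8%.

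**Figure D4:**
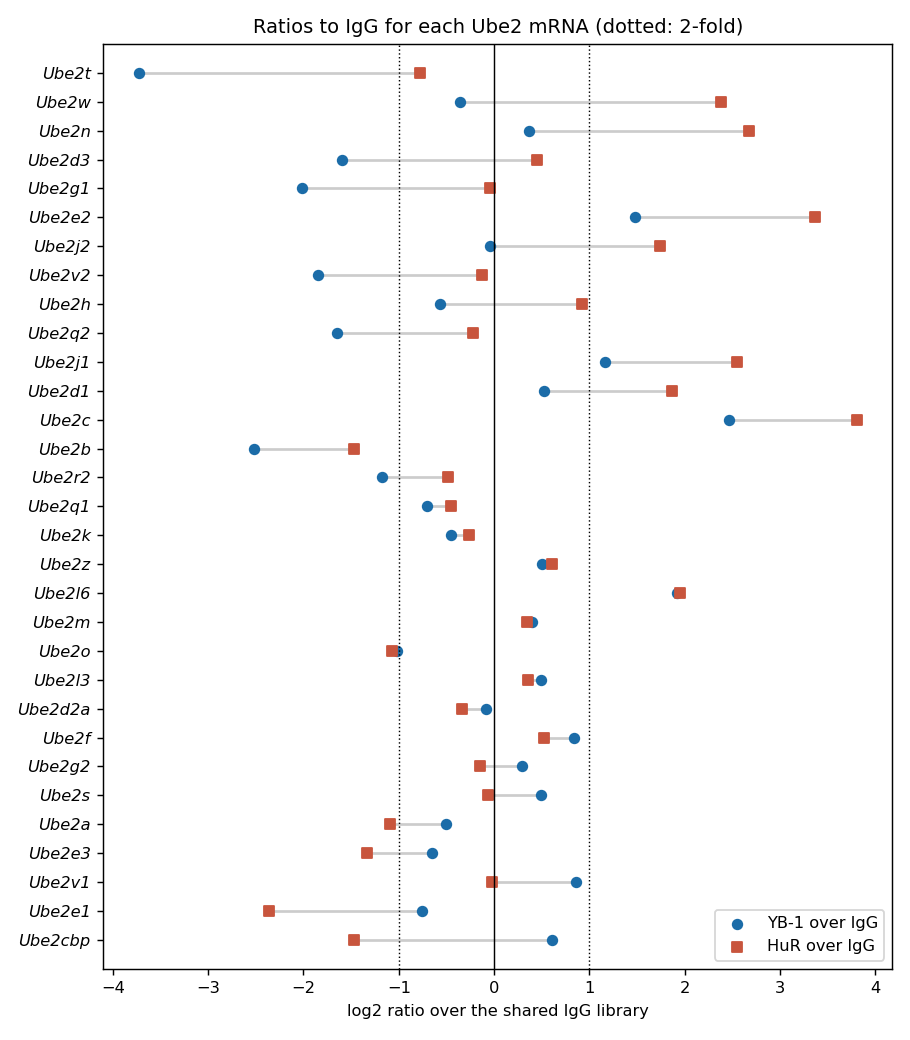
The log2 ratio over the shared IgG library of YB-1 (circles) and HuR (squares) for 31 of 32 Ube2 mRNAs, in the order of HuR over YB-1, with dotted lines at 2-fold and no replicate. Ube2c, Ube2e2, Ube2j1 and Ube2l6 lie right of 2-fold in both ratios, whereas for Ube2t, Ube2d3, Ube2g1, Ube2v2, Ube2q2 and Ube2r2 the YB-1 point lies left of 2-fold and the HuR point within it.

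In the authors' deposited table, which compares YB-1 with IgG, no Ube2 gene passed an adjusted p of 0.05 (DESeq2, 1 library per antibody). The smallest unadjusted p in the authors' deposited table was 0.0748 for Ube2b, with a moderated log2 fold change of -1.79 and a standard error of 1.01. Over all members the authors' deposited table gave moderated log2 fold changes from -1.79 to 1.39 (Ube2l6) and adjusted p from 0.845 upward. Across the 15403 rows of the authors' deposited table, 213 had an unadjusted p under 0.05 and 0 an adjusted one.

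The other steps of the pathway were taken from gene lists by function and compared between HuR and YB-1, with 19.3% of all genes 2-fold or more higher and 10.6% lower. Of 10 E1 genes, 1 was higher (Uba6, the enzyme that charges Ube2z) and 1 lower (Uba7, the E1 for ISG15). Uba6 was 2.06-fold higher, with an interval that reaches below 2-fold (1.63 to 2.62). Uba7 was low in both, with 39.8 normalized counts for YB-1 and 8.62 for HuR, a ratio of 0.216 (0.0997 to 0.420). Uba1, the main ubiquitin E1, stood at 11695 in YB-1 and 9993 in HuR, and the SUMO E1 subunit Sae1 at 3764 and 2203. Of 13 genes for ubiquitin and its relatives, 3 were higher and 3 lower. Ubb, which encodes a ubiquitin precursor, was among the lower, at 34543 in YB-1 against 8885 in HuR. Of 8 further genes with an E2 fold, 2 were higher and 1 lower. Uevld, an E2-like protein without the catalytic cysteine, was 5.49-fold higher (4.76 to 6.35) and Cdc34, the E2 of cullin ligases, stood at 6392 in YB-1 and 2902 in HuR. Birc6, a giant E2 and E3 hybrid, was level at 2058 and 2147.

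Among E3 ligases, 3 of 20 HECT genes were 2-fold or more higher in HuR, and 0 lower. Ube3a was the highest, with 202 normalized counts for YB-1 and 2222 for HuR, a log2 ratio of 3.46 (9.88-fold to 12.3-fold), while Ube3b stood at 3154 and 1979. Nedd4 and Huwe1, the most abundant, were level, with ratios of 1.06 and 1.02. Of 22 cullin-RING genes, 6 were higher and 0 lower, led by Dcun1d1, a factor that promotes the addition of NEDD8 to cullins, at 7.87-fold (7.26 to 8.55). Skp1a, the adaptor of Cul1 ligases, was 2.13-fold higher, Ddb1, the adaptor of Cul4 ligases, had a ratio of 0.780, and Tceb2 (elongin B) one of 0.620. Of 16 genes of the anaphase-promoting complex 1 was higher (Cdc27, 5.56-fold) and 0 lower. Its most abundant members, Anapc5 and Anapc1, had ratios of 0.729 and 0.956, and Anapc7 had the lowest, 0.582. Of 9 measured RBR genes 1 was higher (Rnf144b, 3.03-fold) and 0 lower, with Arih1 at 1.09, Arih2 at 1.19 and Rbck1 lowest at 0.575.

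Of 12 ligases known for muscle, 3 were 2-fold or more higher in HuR, and 0 lower. Fbxo32 (atrogin-1) had normalized counts of 1350 with YB-1, 1543 with HuR and 10060 with IgG, and Asb2 of 980, 714 and 9645. Both were far highest in the IgG library, as were the adult fibre markers above. Trim55 had the lowest ratio of HuR over YB-1, 0.669, and Fbxo40 had the highest, 66.5-fold with an interval of 11.3 to 2691. It rests on 1 read in YB-1. Medians of log2 HuR over YB-1 were -0.13 for E1 genes, -0.34 for ubiquitin and its relatives, -0.21 for the further E2-fold genes, 0.14 for HECT, 0.16 for cullin-RING, -0.07 for the anaphase-promoting complex, -0.04 for RBR and 0.03 for muscle ligases, beside 0.22 for the Ube2 members and -0.06 for all genes. Whether these lists differ from each other was not tested.

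**Figure D5:**
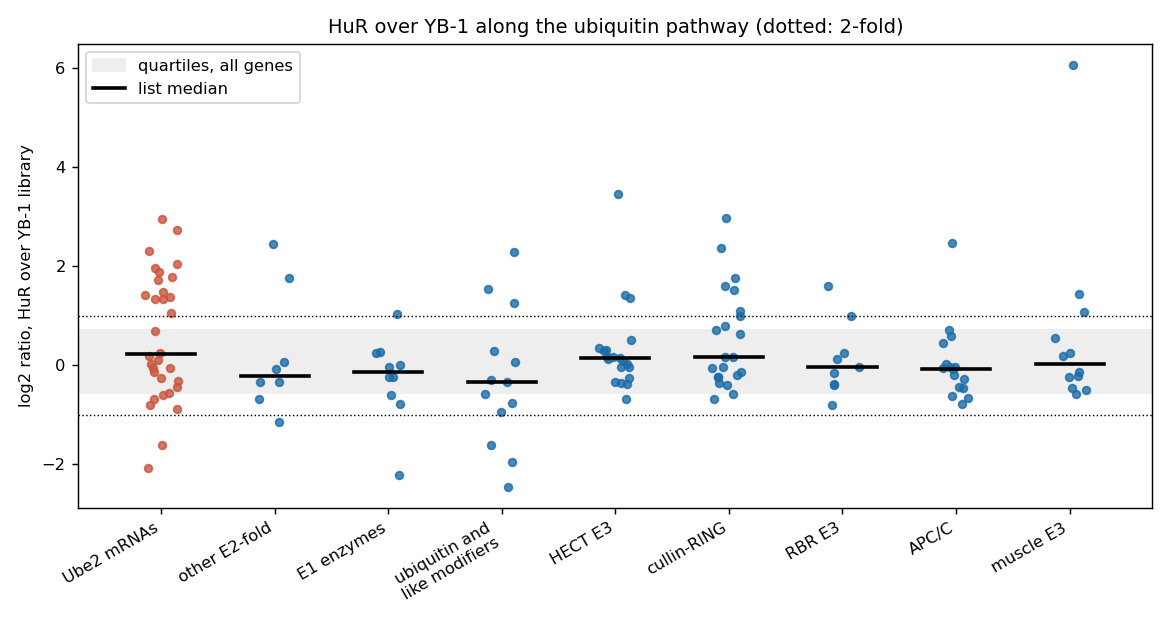
The log2 ratio of HuR over YB-1 for the genes of each step of the ubiquitin pathway (points, spread sideways for legibility), with list medians (black bars), the quartiles of all genes (grey band) and dotted lines at 2-fold. Of 32 Ube2 mRNAs 14 lie above the upper line, and the list medians run from -0.34 for ubiquitin and its relatives to 0.22 for Ube2.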

How the data were processed

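RNA from 3 immunoprecipitates, labelled as from C2C12 cells, was sequenced. The authors deposited 1 table, made with TopHat2 2.0.10, HTSeq 0.6.1 and DESeq2 on mm10/GRCm38 per the submitters' processing notes, with parameters not stated. Its normalized signal per gene (read count over a size factor), mean, log2 fold changes, standard error and Wald score, and p-values were deposited by the authors. Whole reads were recovered from these values (100% came out whole to within 0.01 read). A count model was not fitted, as 1 library per antibody leaves no spread. Of 15428 rows, 25 with a date for a symbol were left out.

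Log2 ratios are unmoderated. A library at 0 was set to 3 reads, with no ratio where both held 3 or fewer. Genes needed a mean of 10 (over the 3 libraries against IgG, over YB-1 and HuR otherwise). "At least 2-fold" is a size, not a test. Intervals were checked on simulated counts drawn with counting error alone, so the check does not cover variation between libraries. Transcripts were from GENCODE vM21 (GRCm38; 15248 of 15403 symbols and 34 of 34 members matched): of coding transcripts, those with a 3′ UTR of 50 nt or more, then the best APPRIS rank, then the longest 3′ UTR. Coding regions were aligned with Biopython 1.88. Ratios used Python 3.11.15 with scipy 1.17.1. Members, lists, role groups and the naming rule (all members, and of each pathway list the 2 of highest mean and the extremes of HuR over YB-1) were chosen with earlier results of these data known, and the related pairs and 3′ UTR measures after their values were seen. Of the genes this rule names, 3 (1 of them a member) are not reported here one by one or drawn in plots with gene labels, and stay in the counts and medians.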

Additional observations from a re-analysis of the deposited data

How the results depend on the processing

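No paired analysis was possible because each antibody had 1 library, and for the same reason no replicate could be left out. Ratios to IgG rest on the scaling. The median of YB-1 over IgG was -0.06 and became 0.17 scaled to total reads, 0.11 centred on all genes and -1.19 centred on ribosomal protein genes. The median of HuR over IgG was -0.03 and became 0.16, 0.13 and -0.53. These scalings shift every gene alike, in log2 by 0.23, 0.17 and -1.12 for YB-1 over IgG and by 0.19, 0.16 and -0.50 for HuR over IgG. For HuR over YB-1 the shifts were -0.04, 0.06 and 0.67, and the median of 0.22 became 0.89 with ribosomal centring and 0.47 without the 6 members that share over 5% of their exons with another gene (an alternative chosen after seeing the data). The share of all genes past the same limit stands after each count. Where members were left out for overlaps or as not an E2, no genes were left out of that share. Members at least 2-fold higher in YB-1 over IgG went from 5 (17.0%) to 1 with ribosomal centring (2.37%), 8 at 1.5-fold (28.8%), 2 at 3-fold (6.57%) and 3 by the authors' moderated fold (8.48%), and those lower from 8 (32.8%) to 17 with ribosomal centring (58.2%). In HuR over IgG the 6 lower (31.1%) became 1 at 3-fold (22.9%). In HuR over YB-1 the 14 higher (19.3%) became 8 at 3-fold (11.02%), 15 at 1.5-fold (28.1%), 15 with ribosomal centring (34.7%), 13 of 31 with a mean of 50 (17.6%) and 12 of the 26 members without overlaps (19.3%). The 2 lower (10.6%) became 6 at 1.5-fold (23.5%) and 1 with ribosomal centring (4.06%), 1 of 31 without Ube2cbp, which is not an E2, and 1 of 26 without the overlapping members (both 10.6%). The cause of these moves was not tested beyond what each alternative changes. The other alternatives, namely no mean filter, a mean of 50, 0.5 read added to both libraries and, chosen after seeing the data, size factors from YB-1 and HuR alone and a mean over 3 libraries, kept each median's sign and each count within 1.5-fold. Depth limits Ube2t, Ube2cbp, Ube2d2b and Ube2ql1, which rest on few reads.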
